A study of Mus musculus with 6 samples.

Results

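Th17 cells were set against both other T helper subsets of a transfer experiment, and the genes that placed Th17 cells apart from both are described. There were 2 Th17 arrays, labelled Th17 cells and Th17 cells repeat, against 4 other arrays, 2 of Th9 cells and 2 of Th1 cells, of 6 in all. A gene was first taken where both Th17 arrays lay above, or both below, all 4 others after normalization. It was called apart where limma's moderated test also gave an adjusted p below 0.05 against Th9 and against Th1, in the same direction. All cells were, per the labels, CD45.1 and CD4 positive T helper cells sorted from spleens of tumour-bearing C57BL/6 mice 12 days after their transfer. Biotin-labelled cRNA made from their total RNA was read on Illumina mouse bead arrays. The kinds are given by the subset name alone, and the culture conditions, the tumour and the number of mice behind each array are not given in the sources used here. No array of cells before transfer or of host cells was analysed here. The labels do not say whether a repeat came from separate mice. The p-values therefore set a difference only against the spread of these arrays, and that spread may be technical. With 2 arrays a kind, the number of arrays limits the precision.

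Naive CD4 T cells become Th17 cells under TGF-beta with interleukin 6, which acts through its receptor, the kinase JAK1 and the transcription factor STAT3. Nuclear receptors such as ROR-alpha then drive the interleukin 17 genes, and SOCS3, itself a STAT3 target, limits interleukin 6 signalling. Th1 cells depend on T-bet and make interferon gamma, and Th9 cells make interleukin 9 under TGF-beta with interleukin 4 and need IRF4. Th17 cells are known as a subset that can persist for long periods and can change their cytokines after transfer into a host.

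Of 12093 genes tested, 3762 (31.1%) had Th17 arrays that did not overlap the 4 others, with 1886 (15.6%) higher and 1876 (15.5%) lower in Th17. Of these, 1080 (8.93%) were apart, 568 (4.7%) higher and 512 (4.23%) lower. The arrays of all 1080 genes called in both comparisons in the same direction did not overlap. Most of the differences were modest. The smaller of a gene's differences from Th9 and from Th1 had a median of 0.52 log2 units in the genes higher in Th17 and a median of 0.48 in those lower, and 109 genes (0.901%) passed 1 log2 unit against both, 56 of them higher (0.463%) and 53 lower (0.438%). The Th17 to Th9 comparison called 2293 genes (19%), 1081 higher (8.94%) and 1212 lower (10%), and that to Th1 called 1799 (14.9%), 905 higher (7.48%) and 894 lower (7.39%). Against the mean of the other kinds, 2297 genes (19%) were called, 1106 higher (9.15%) and 1191 lower (9.85%). The comparisons share the 2 Th17 arrays. Under the same rule, 753 genes (6.23%) were apart in Th9, 450 higher (3.72%) and 303 lower (2.51%), and 384 (3.18%) in Th1, 221 higher (1.83%) and 163 lower (1.35%), counts whose difference from the Th17 count was not tested. With median scaling in place of quantile normalization, 929 genes were apart in Th17, 772 higher and 157 lower, so the balance of directions depends on the scaling. The median difference from the mean of the others over all genes was 0.081 with that scaling, against -0.004.

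**Figure D1:**
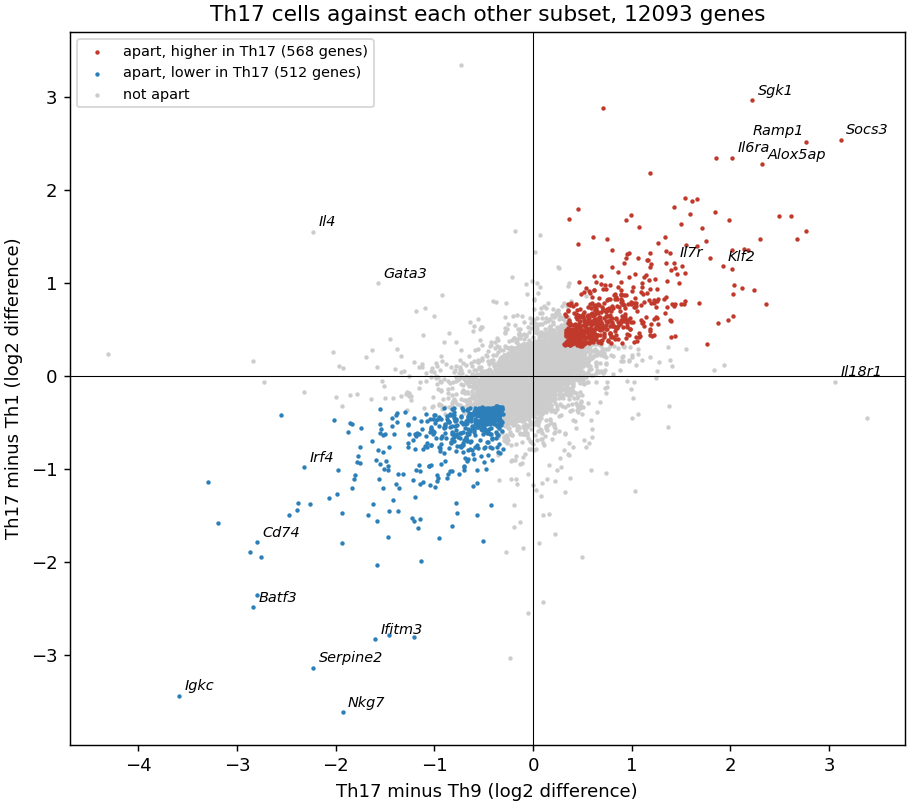
Each point is 1 of 12093 genes, with the log2 difference of Th17 minus Th9 on the horizontal axis and of Th17 minus Th1 on the vertical axis. The 568 genes apart and higher in Th17 (red) fill the upper right and the 512 apart and lower (blue) the lower left, whereas Gata3 and Il4 lie between the other subsets and Il18r1 separates Th17 from Th9 only.

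The transferred cells carried T cell transcripts on every array. Of 9 measured T cell markers, 4 were apart and higher in Th17 (44.4%, against 4.7% of all genes tested) and 0 lower. The summed intensity of the 9 was 30102 to 30948 in Th17, 22220 to 22560 in Th9 and 25377 to 26127 in Th1. Markers and the gene lists below were chosen with earlier results of these data known, so their counts and shares are description only. Cd3d, a chain of the T cell receptor complex, had normalized log2 intensities of 12.91 and 12.77 in Th17, 12.42 and 12.36 in Th9, and 12.60 and 12.40 in Th1. All 6 values are high, with both Th17 arrays on top. Cd4 had 7.06 and 7.19 in Th17, 6.70 and 6.86 in Th9, and 6.45 and 6.80 in Th1, and passed against Th1 (0.50) but not against Th9 (0.34, adjusted p = 0.062). The part of these marker levels in the other results was not tested. In bulk RNA, fewer cells of a type and less RNA per cell cannot be told apart.

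Il17a did not separate the Th17 arrays from the others, and Il17f was above all others on both Th17 arrays but passed against Th9 only. Il17a, the cytokine that names the subset, had deposited intensities of -0.3 and 8.6 in Th17, 7.8 and 3.4 in Th9, and 3.1 and 11.2 in Th1, against detection thresholds of 5.84 to 6.95. It was above background on 1 of 2 arrays of each kind, and the kinds overlapped. Il17f, a close relative of Il17a, had 7.7 and 15.6 in Th17, -6.6 and -3.4 in Th9, and -2.2 and -0.9 in Th1, and was above background on the 2 Th17 arrays and on 0 others. The filter kept probes above background on at least 2 arrays, so Il17f was tested through its Th17 arrays alone. Its log2 difference passed against Th9 (0.36 ± 0.11 SE, adjusted p = 0.024) and not against Th1 (0.28 ± 0.11, adjusted p = 0.103). The call against Th9 ended with median scaling (adjusted p = 0.0638), without Th9 replicate 1 (adjusted p = 0.171) and without Th9 replicate 2 (adjusted p = 0.0649), whereas without background correction Il17f also passed against Th1 (adjusted p = 0.0447). The probes of Il22, a cytokine of Th17 cells acting on epithelium, Il23r, the receptor that sustains them, and Ahr, a ligand-activated factor needed for Il22, lay below the threshold on 6 of 6 arrays and could not be compared.

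Among measured members of the Th17 programme, 5 of 12 were apart and higher (41.7%, against 4.7% of all genes tested) and 0 lower. The median difference from the mean of the other subsets was 0.26 against -0.004 for all genes tested. Rora, which encodes ROR-alpha, had 7.52 and 7.55 in Th17, 6.68 and 6.66 in Th9, and 6.57 and 6.57 in Th1. The Th17 arrays stood above all others, by 0.86 ± 0.11 over Th9 (adjusted p = 4.11e-06) and 0.96 ± 0.11 over Th1 (adjusted p = 1.82e-06). Il21, a STAT3-inducing cytokine, was detected on both Th17 arrays and on 0 of the 4 others, and was at least 1.26-fold higher than in Th9 and at least 1.24-fold higher than in Th1. Such bounds set the Th17 mean against the lowest level that counts as above background on the other arrays. Il21 passed the filter through the Th17 arrays alone, and without either of them it was not tested. Its call ended without Th9 replicate 1. Tmem176a, a membrane protein of Th17 cells, was higher by 0.45 over Th9 and 1.42 over Th1, a call that ended without Th17 replicate 2 or Th9 replicate 1. Maf, a factor for Il21, was near background, with 6.21 and 6.21 in Th17 against 6.00 and 6.05 in Th9 and 5.97 and 6.01 in Th1, and did not pass in either comparison. Batf, an AP-1 factor required for Th17 cells, had overlapping arrays and differences of -0.03 and 0.11, although with median scaling it passed against Th1 (0.46, adjusted p = 0.0202). Ccr6, the chemokine receptor typical of Th17 cells, was lower than in Th1 (-0.49, adjusted p = 0.00371) and did not pass against Th9 (-0.27). The Ccr6 call against Th1 ended with median scaling (-0.25, adjusted p = 0.244), without background correction, without Th17 replicate 2 and when its probes were averaged (-0.19, adjusted p = 0.215), and another Ccr6 probe gave 0.11 and 0.11.

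The interleukin 6 pathway held the named gene with the largest rise over both subsets. Of 17 measured members of the IL-6 and STAT3 list, 6 were apart and higher in Th17 (35.3%, against 4.7% of all genes tested) and 0 lower. The list's median difference was only 0.13. Socs3, the feedback inhibitor of the interleukin 6 receptor, had 11.39 and 11.23 in Th17, 8.32 and 8.06 in Th9, and 8.6 and 8.95 in Th1. Its lowest Th17 array lay 2.28 log2 units above the highest other array. The differences were 3.12 ± 0.13 from Th9 (adjusted p = 1.05e-12) and 2.54 ± 0.13 from Th1 (adjusted p = 3.37e-11), and no other named gene higher in Th17 had a larger smaller difference. Il6ra, the ligand-binding chain of that receptor, had 9.04 and 9.08 in Th17, 7.09 and 6.99 in Th9, and 6.68 and 6.75 in Th1. The Th17 arrays were clear of the rest by 1.94, and 2 other Il6ra probes also passed in both comparisons. Il6st, the shared signalling chain gp130, was near background, its arrays overlapped, and it did not pass (0.30 and 0.14), though it did against Th9 without either Th1 array (adjusted p = 0.0499 and 0.0462). Jak1, the receptor-associated kinase, was higher by 0.80 over Th9 and 0.62 over Th1, and Bcl3, an I-kappa-B family coactivator, by 1.10 and 1.0. Stat3 had 9.57 and 9.90 in Th17, 9.03 and 8.88 in Th9, and 9.29 and 9.29 in Th1. Its arrays did not overlap, with 0.78 over Th9 and 0.45 over Th1, but the call ended without Th17 replicate 2 (0.28 over Th1, adjusted p = 0.294), Th1 replicate 1 (adjusted p = 0.0534) or Th1 replicate 2 (adjusted p = 0.0588). When intensities were used without background correction or offset, the calls of Jak1, Bcl3, Stat3, Il21 and Tmem176a ended.

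STAT factors bind the palindrome TTCNNNGAA, so promoters of the genes apart were searched for it. The windows were 300 bases long, from upstream of the RefSeq gene start (GRCm38.p6) to 50 bases after it, and the motif reads the same on both strands. It stood in 43 of 636 windows of genes apart and higher (6.76%), in 55 of 520 of genes apart and lower (10.6%), in 7.17% of windows of all genes tested and in 8.3% of all promoters of the table. The share in genes higher in Th17 was therefore near that of all genes. Of the 51 named genes apart and higher, 41 had a promoter in the table and 9 had a match in at least 1 window. That count is by gene, and some genes have more than 1 window, so it cannot be set against the shares of windows. Of the 9 genes, Socs3 is shown for that largest rise, Bcl6 for its window with 3 matches, and Il7r as a cytokine receptor. Another Bcl6 window, not shown, held 1 match. Capitals mark the matches, TTCTTAGAA at -154 from the gene start in Socs3, TTCCTGGAA at -168, TTCTGTGAA at -122 and TTCCGGGAA at -88 in Bcl6, and TTCAGGGAA at -142 in Il7r. A match describes letters only, and no binding was measured.
Socs3, chr11:117969317-117969616, minus strand: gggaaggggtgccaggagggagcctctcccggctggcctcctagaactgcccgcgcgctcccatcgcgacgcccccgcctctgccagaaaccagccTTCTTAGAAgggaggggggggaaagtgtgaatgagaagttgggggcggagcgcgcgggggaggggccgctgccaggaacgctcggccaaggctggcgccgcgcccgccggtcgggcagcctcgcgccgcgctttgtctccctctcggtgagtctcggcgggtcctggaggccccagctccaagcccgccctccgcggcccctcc
Bcl6, chr16:23981234-23981533, minus strand: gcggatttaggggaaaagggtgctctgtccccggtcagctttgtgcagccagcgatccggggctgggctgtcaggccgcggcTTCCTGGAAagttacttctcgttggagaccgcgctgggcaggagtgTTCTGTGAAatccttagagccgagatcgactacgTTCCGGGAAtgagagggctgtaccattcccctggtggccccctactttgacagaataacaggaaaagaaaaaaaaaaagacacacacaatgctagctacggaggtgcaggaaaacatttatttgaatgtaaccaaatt
Il7r, chr15:9529827-9530126, minus strand: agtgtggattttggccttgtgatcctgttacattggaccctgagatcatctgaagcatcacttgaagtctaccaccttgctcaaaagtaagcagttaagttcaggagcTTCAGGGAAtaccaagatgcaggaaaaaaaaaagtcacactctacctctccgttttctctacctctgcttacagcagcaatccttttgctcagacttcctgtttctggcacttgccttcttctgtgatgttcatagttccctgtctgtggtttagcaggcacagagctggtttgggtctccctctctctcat

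The AP-1 motif TGANTCA was in 4.25% of the windows of genes higher, 5.96% of those lower and 5.42% of those of all genes tested. The nuclear receptor core site AGGTCA was in 10.7%, 13.1% and 12.9%, the forkhead motif TGTTTAC in 3.3%, 3.85% and 2.6%, and the interferon response motif in 3.3%, 1.73% and 3.11% of the same 3 sets. Both strands were searched, and matches of different motifs may overlap, as AP-1 and STAT matches at -25 and -22 do in Emp1.

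**Figure D2:**
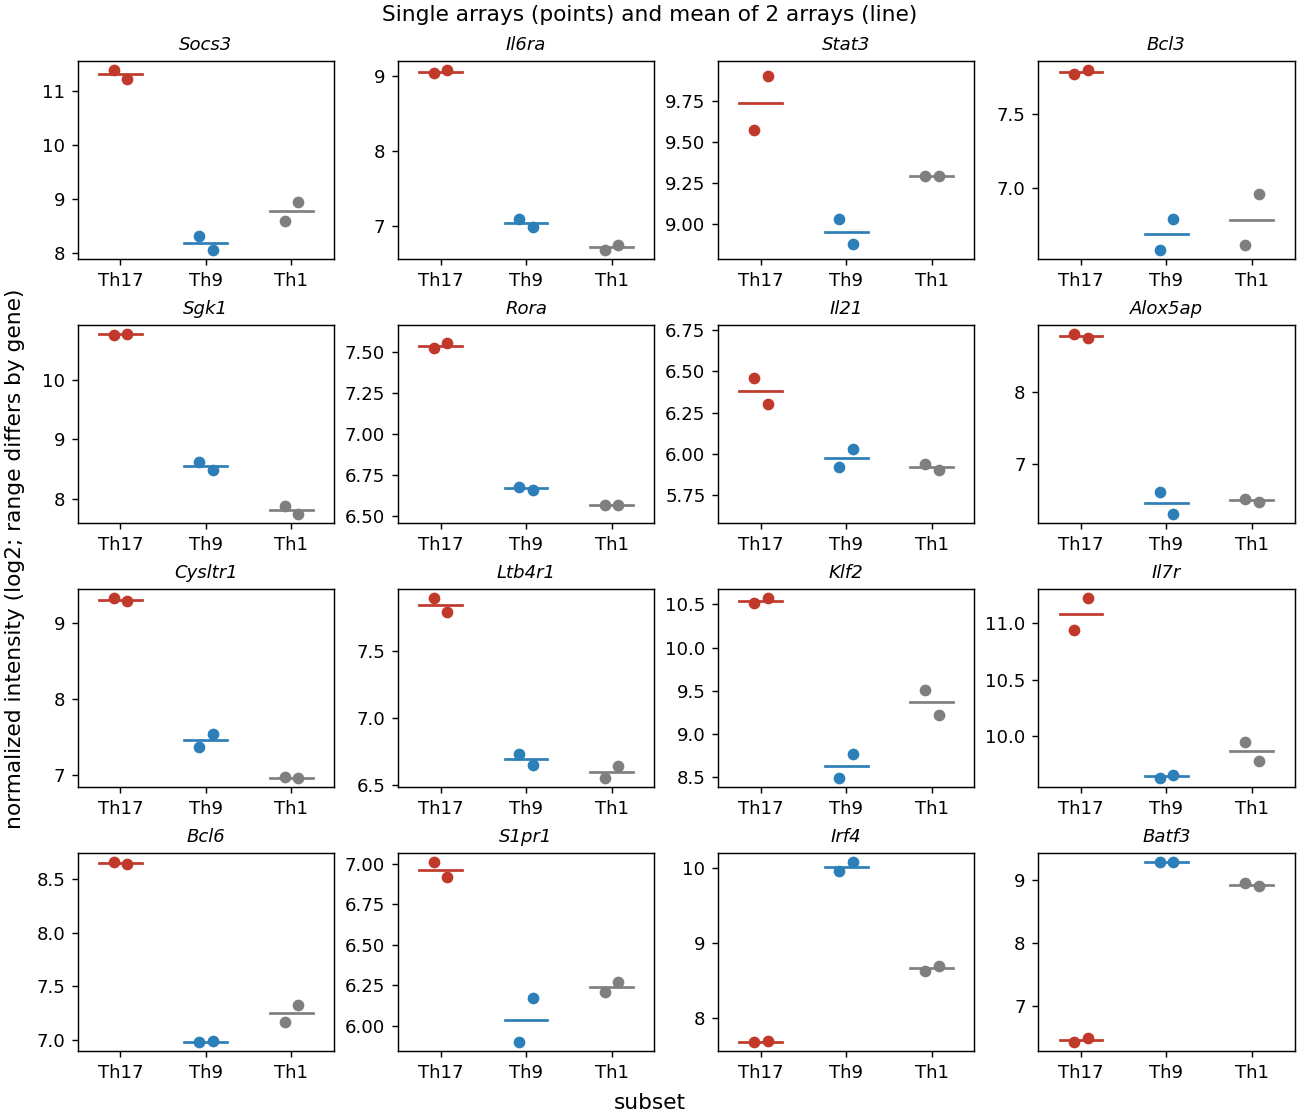
Each panel shows 1 gene, with the normalized log2 intensity of single arrays as points and the mean of 2 arrays as a line, for Th17, Th9 and Th1 from left to right. The Th17 points lie above all others in the first 14 panels (Socs3 to S1pr1) and below all others for Irf4 and Batf3, and the range of the vertical axis differs between genes.

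Some genes of leukotriene signalling were higher in Th17. Of 6 measured leukotriene and prostaglandin genes, 3 were apart and higher (50%, against 4.7% of all genes tested) and 0 lower, with a median difference of 0.66. The list was chosen with earlier results of these data known, so the share is description only. Alox5ap, which presents arachidonic acid to 5-lipoxygenase, had 8.81 and 8.75 in Th17, 6.62 and 6.31 in Th9, and 6.52 and 6.48 in Th1. Cysltr1, a receptor for cysteinyl leukotrienes, had 9.32 and 9.28 in Th17, 7.37 and 7.54 in Th9, and 6.97 and 6.96 in Th1. Ltb4r1, the high-affinity receptor for leukotriene B4, had 7.89 and 7.79 in Th17, 6.73 and 6.65 in Th9, and 6.55 and 6.64 in Th1. In each of these genes the Th17 arrays were above all 4 others, and the differences were 2.32 and 2.28 for Alox5ap, 1.85 and 2.34 for Cysltr1, and 1.15 and 1.25 for Ltb4r1, against Th9 first and Th1 second. All 3 calls held in every alternative run. The enzyme Alox5 itself was not above background on enough arrays to be tested.

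The kinase Sgk1 led the PI3K and Akt list. Of its 17 measured members 6 were apart and higher (35.3%, against 4.7% of all genes tested) and 0 lower, with a median of 0.15. Sgk1, a salt-sensing kinase that stabilizes Th17 cells by promoting Il23r expression, had 10.77 and 10.78 in Th17, 8.62 and 8.49 in Th9, and 7.87 and 7.74 in Th1. Its Th17 arrays lay 2.15 above the nearest other array, with differences of 2.22 ± 0.11 from Th9 (adjusted p = 1.25e-11) and 2.97 ± 0.11 from Th1 (adjusted p = 2.59e-13). Trib2, a pseudokinase of the Tribbles family, had 9.76 and 9.82 in Th17, 7.31 and 7.56 in Th9, and 8.91 and 9.13 in Th1. It separated Th17 from Th9 by 2.36 and from Th1 by 0.77. Pik3ip1, an inhibitor of PI3K (1.54 and 0.81), and Sesn1, an inhibitor of mTORC1 (1.39 and 0.60), were higher than in both. The calls of Trib2, Pik3ip1 and Sesn1 ended without background correction.

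Genes of quiescent and memory T cells formed the list with the most members apart and higher. Of 24 measured members, 13 were apart and higher (54.2%, against 4.7% of all genes tested) and 1 was lower, with a median of 0.51. The 13 differed by 0.51 to 1.92 from Th9 and by 0.41 to 1.40 from Th1. Klf2, a factor of quiescence and of exit from lymphoid tissue, had 10.51 and 10.57 in Th17, 8.49 and 8.77 in Th9, and 9.51 and 9.22 in Th1. Il7r, the survival receptor for interleukin 7, had 10.94 and 11.22 in Th17, 9.63 and 9.66 in Th9, and 9.95 and 9.78 in Th1. Bcl6, a transcriptional repressor active in follicular helper and memory cells, had 8.66 and 8.64 in Th17, 6.98 and 6.99 in Th9, and 7.17 and 7.33 in Th1. All 3 genes had Th17 arrays at least 0.99 above the nearest other array. Differences from Th9 and from Th1 were 1.92 ± 0.12 and 1.18 ± 0.12 for Klf2, 1.43 ± 0.12 and 1.22 ± 0.12 for Il7r, and 1.66 ± 0.11 and 1.40 ± 0.11 for Bcl6. Ets1, a transcription factor that maintains naive T cells, was higher by 0.89 and 0.80. Without background correction the calls of Klf2 (adjusted p = 0.0654 against Th1) and Ets1 ended.

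Of 19 measured chemokine receptor and homing genes, 2 were apart and higher (10.5%, against 4.7% of all genes tested), 0 lower, and the median was 0.11. S1pr1, the sphingosine 1-phosphate receptor that guides exit from lymph nodes and is a target of Klf2, had 7.01 and 6.92 in Th17, 5.90 and 6.17 in Th9, and 6.21 and 6.27 in Th1. Both Th17 arrays were higher than the rest, by 0.93 over Th9 and 0.73 over Th1. S1pr4, a related receptor, was higher by 0.79 and 0.43, a call that ended without Th17 replicate 2 or Th1 replicate 1. Ccr7, the lymph node homing receptor, was higher than in Th9 (0.65, adjusted p = 0.00215) but not than in Th1 (0.24, adjusted p = 0.309), and its arrays overlapped. The Ccr7 call against Th9 ended without Th17 replicate 1 (0.41, adjusted p = 0.0957), without Th9 replicate 1 (adjusted p = 0.056) and without background correction. With median scaling it also passed against Th1 (0.58, adjusted p = 0.0277). Without background correction the S1pr1 and S1pr4 calls ended.

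The TGF-beta list had 3 of 14 measured members apart and higher (21.4%, against 4.7% of all genes tested) and 0 lower. Its median was -0.02, which became 0.14 with median scaling. Tgfbr2, the ligand-binding receptor chain, had 10.63 and 10.74 in Th17, 9.13 and 9.34 in Th9, and 9.62 and 9.41 in Th1. It was higher in Th17 by 1.44 over Th9 and by 1.16 over Th1, with no overlap. Tgfb3, a ligand that Th17 cells produce themselves, had deposited intensities of 108.6 and 60.2 in Th17, 3.0 and -4.2 in Th9, and -4.5 and -3.0 in Th1. Above background only on the Th17 arrays, it passed the filter through them alone. It was at least 2.01-fold higher than in Th9 and at least 1.98-fold higher than in Th1. Its call held in the 12 of 15 alternatives that tested it. Leaving out either Th17 array, or requiring detection on all 6 arrays, removed Tgfb3 before any test. Ski, a corepressor of SMAD signalling, was higher by 0.35 and 0.70, and lost its call without either Th17 array or either Th9 array, with median scaling and with a trended variance. The Tgfbr2 call ended without background correction (adjusted p = 0.0515 against Th1).

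Of 20 measured glycolysis and hypoxia genes, 6 were apart and higher (30%, against 4.7% of all genes tested) and 0 lower, with a median of 0.24. Egln3, a HIF prolyl hydroxylase, had 9.71 and 9.84 in Th17, 8.81 and 8.86 in Th9, and 8.06 and 8.14 in Th1. The 3 kinds did not overlap one another, with Th17 higher by 0.94 than Th9 and by 1.68 than Th1. Pdk1, which diverts pyruvate from mitochondria, was higher by 1.26 and 0.94, Aldoc, an aldolase, by 0.94 and 1.27, and Slc2a3, a glucose transporter, by 0.92 and 1.21. These 4 calls held in every alternative run except the threshold of 1 log2 unit, which none of them reached against both other kinds. Among 23 measured respiratory chain genes 0 were higher and 1 was lower (4.35%, near the 4.23% of all genes tested). That was cytochrome c (Cycs, -0.46 and -0.37), whose 2 other probes did not pass. The Cycs call ended without Th17 replicate 1, Th17 replicate 2, Th9 replicate 1 or Th1 replicate 1. The median of the respiratory list was -0.14, and 0.10 with median scaling.

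Among T cell receptor signalling genes, 4 of 18 measured members were apart and higher (22.2%, against 4.7% of all genes tested), 0 lower, with a median of 0.10. Dgka, a diacylglycerol kinase that restrains T cell receptor signals, had 11.35 and 11.38 in Th17, 9.88 and 10.16 in Th9, and 10.46 and 10.57 in Th1. The Th17 arrays were 0.783 above the nearest other array, and another Dgka probe passed in both comparisons. Lat, the adaptor of activated T cells (0.91 and 0.53), Malt1, a paracaspase of the NF-kB branch (0.62 and 0.46), and Prkcq, protein kinase C theta (0.46 and 0.37), were higher by less. Lat and Malt1 lost their calls without Th17 replicate 2 or Th1 replicate 1, and Prkcq without any of 5 single arrays, all but Th9 replicate 1. The T cell markers Cd2 (0.54 and 0.95) and Cd6 (1.76 and 0.34) were higher too, but Cd6 lost its call whichever array was left out, and Cd3d (0.45 and 0.34) without any array but Th1 replicate 1. Calls of Dgka, Lat, Malt1, Prkcq, Cd2, Cd3d and Cd6 also ended without background correction.

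Costimulatory genes split in both directions. Of 12 measured members of a list of TNF family receptors and ligands with Cd28 and Icos, 3 were higher and 3 lower in Th17. Each direction held 25% of the list, against 4.7% higher and 4.23% lower of all genes tested. With median scaling 3 members were higher and 1 lower, against 772 higher and 157 lower of the 12093 genes tested. The median of the list was -0.03 and became 0.08 with median scaling. Tnfrsf25, the receptor DR3, had 9.40 and 9.36 in Th17, 8.11 and 8.10 in Th9, and 8.51 and 8.58 in Th1. Cd27, a receptor of less differentiated T cells, had 11.33 and 11.43 in Th17, 9.54 and 9.48 in Th9, and 10.61 and 11 in Th1. Both were highest in Th17 and lowest in Th9, though the 2 other Cd27 probes did not pass against Th1 and the Cd27 call ended without Th1 replicate 1. The third member higher was Cd28, a costimulatory receptor outside that family (0.46 and 0.37, adjusted p = 0.0483 against Th1), named here after its values were seen. Tnfrsf4, the receptor OX40 of activated helper cells, had 9.60 and 9.71 in Th17, 11.62 and 11.46 in Th9, and 10.22 and 10.30 in Th1. Tnfrsf18, the receptor GITR, was lower by a wider margin against Th9 (-1.55) than against Th1 (-0.52), as was Tnfrsf9, the receptor 4-1BB (-1.26 and -0.62). With median scaling the Tnfrsf4 and Tnfrsf18 calls ended, and without background correction the calls of Cd27, Tnfrsf4, Tnfrsf18 and Tnfrsf9 ended.

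Further genes apart and higher belonged to no list or to lists with few members called. Ramp1, part of the receptor for the neuropeptide CGRP, had 9.0 and 8.87 in Th17, 6.29 and 6.05 in Th9, and 6.54 and 6.29 in Th1, so that Th17 was higher by 2.77 and 2.52. Nt5e, the ectoenzyme CD73 that makes adenosine, had 9.79 and 9.79 in Th17, 8.13 and 8.22 in Th9, and 7.89 and 7.94 in Th1, and a second Nt5e probe also passed in both comparisons. Vsir, the inhibitory ligand VISTA, had 8.88 and 9.22 in Th17, 6.84 and 6.66 in Th9, and 7.51 and 7.65 in Th1. These 3 encode surface molecules, and in none did the Th17 arrays overlap the others. Differences from Th9 and Th1 were 2.61 and 1.72 for Emp1, a tetraspan epithelial membrane protein, 2.49 and 1.72 for Bambi-ps1, a pseudogene of a TGF-beta pseudoreceptor, and 1.66 and 1.90 for Aqp3, an aquaglyceroporin. Signal of Bambi-ps1 and of its parent gene may not be separable by this probe. Hs3st3b1, a heparan sulphate sulfotransferase (1.59 and 1.74), Ank, a pyrophosphate transporter (1.71 and 1.59), Cyp2s1, a cytochrome P450 (1.54 and 1.92), and Fam183b (1.5 and 1.63) were higher as well. Acpp, an acid phosphatase, had 7.89 and 7.79 in Th17, 5.97 and 6.03 in Th9, and 6.19 and 5.98 in Th1, and was at least 3.47-fold higher than in Th9, whose arrays were below background. Zfp36, which destabilizes cytokine mRNAs (1.24 and 1.04), and Ier3, an early response gene (0.73 and 0.98), were the 2 members higher of 18 immediate early and heat shock genes, of which 1 was lower. Those shares were 11.1% higher and 5.56% lower, against 4.7% and 4.23% of all genes tested. Without background correction the calls of Ramp1, Bambi-ps1, Acpp, Fam183b and Zfp36 ended.

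**Figure D3:**
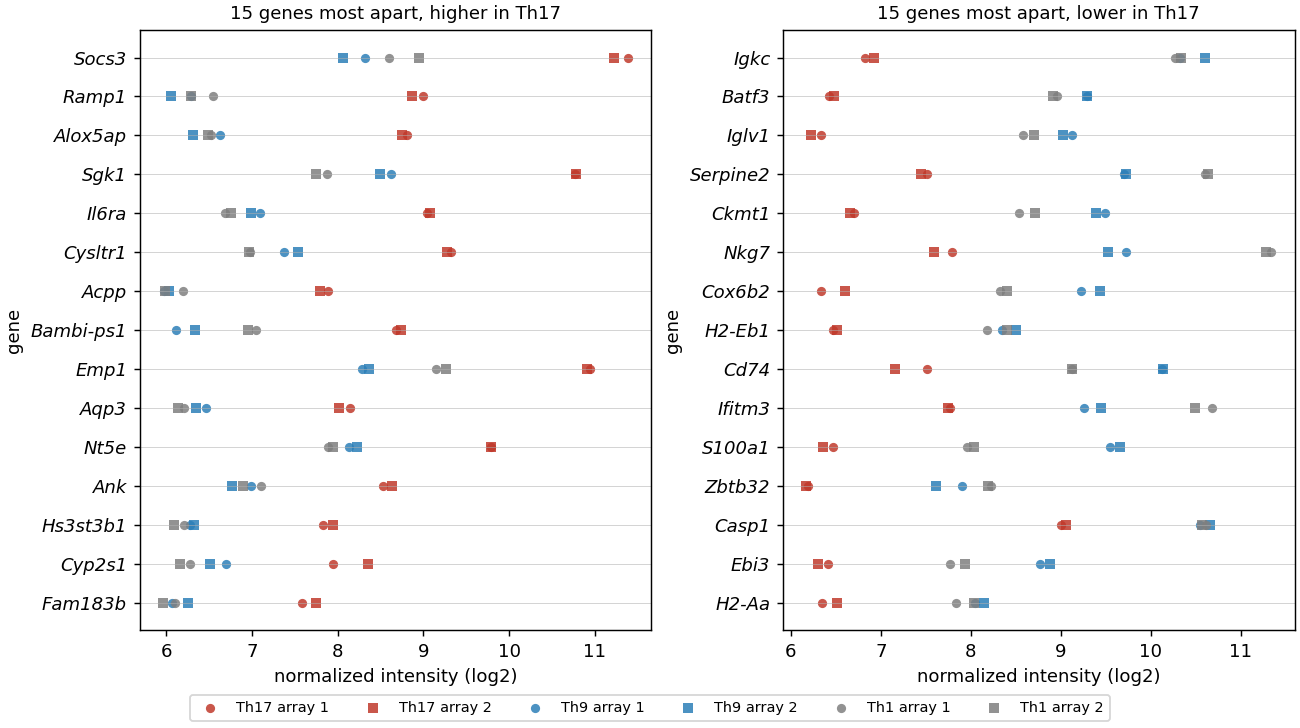
Normalized log2 intensity of single arrays (red Th17, blue Th9, grey Th1, with circles for array 1 and squares for array 2) for the 15 named genes most apart and higher in Th17 (left) and the 15 most apart and lower (right), ordered by the smaller difference. In every row the red points are separated from all blue and grey points, by 1.25 or more at left and 1.31 or more at right.

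Irf4 and Batf3, transcription factors on the Th9 list, were lowest in Th17, whereas Gata3 on the same list was lowest in Th1. Of 11 measured Th9 and type 2 genes, 3 were apart and lower (27.3%, against 4.23% of all genes tested) and 0 higher, with a median of -0.39. Irf4, a factor needed for Th9 and also Th17 differentiation, had 7.68 and 7.69 in Th17, 9.95 and 10.07 in Th9, and 8.63 and 8.69 in Th1. The kinds formed 3 separate levels, with Th17 lower than Th9 by -2.32 ± 0.11 (adjusted p = 4.83e-12) and than Th1 by -0.98 ± 0.11 (adjusted p = 1.9e-06). Batf3, an AP-1 factor that pairs with IRF4, had 6.42 and 6.48 in Th17, 9.29 and 9.29 in Th9, and 8.96 and 8.91 in Th1. It was close to background in Th17 and well above it elsewhere, with differences of -2.84 and -2.49, and its other probe gave -1.79 and -1.89. Asb2, a ubiquitin ligase subunit, had 7.04 and 6.63 in Th17, 10.08 and 10.17 in Th9, and 8.04 and 7.91 in Th1, and its call ended without background correction. Zbtb32, a zinc finger repressor of T cell activation, was lower by -1.58 than in Th9 and by -2.03 than in Th1.

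Several effector and cytotoxic genes, among them Nkg7, Ccl5, Fasl and Gzmb, were also low in Th17. Of 13 measured cytotoxic genes, 5 were apart and lower (38.5%) and 1 higher (7.69%), with a median of -0.36. Of 14 measured Th1 genes 2 were lower (14.3%) and 1 higher (7.14%), with a median of -0.27. The 2 lower Th1 genes, Ccl5 and Fasl, are also among the 5 lower cytotoxic genes. The shares of all genes tested were 4.23% lower and 4.7% higher. Nkg7, a granule protein of cytotoxic cells, had 7.79 and 7.59 in Th17, 9.72 and 9.52 in Th9, and 11.34 and 11.28 in Th1. Ccl5, a chemokine of effector cells, had 7.19 and 7.31 in Th17, 8.58 and 8.20 in Th9, and 9.30 and 9.18 in Th1. Both genes were lowest in Th17 and highest in Th1, without overlap of kinds. Fasl, the death ligand, was above background on 0 Th17 arrays and on all Th9 and Th1 arrays, and was at least 1.69-fold lower in Th17 than in Th9 and at least 2.92-fold lower than in Th1. Gzmb, granzyme B, had 6.56 and 6.38 in Th17, 7.23 and 7.45 in Th9, and 7.40 and 7.72 in Th1. Cst7, cystatin F, was lower by -1.47 and -1.01. The member higher in the cytotoxic list was Klrd1, the NK receptor chain CD94 (1.19 and 0.56), named here after its values were seen. The member higher in the Th1 list was Stat4, a transducer of interleukin 12 (1.07 and 0.42), which lost its call without Th17 replicate 1, Th17 replicate 2 or Th1 replicate 1 and of whose 3 other probes none passed against Th1. Tbx21, which encodes T-bet, was above background on 0 Th17 arrays, 1 Th9 array and 2 Th1 arrays, and was at least 1.97-fold lower than in Th1 but did not pass against Th9 (-0.16). The Gzmb and Cst7 calls ended without background correction.

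Casp1, the inflammatory caspase, had 9.0 and 9.06 in Th17, 10.55 and 10.66 in Th9, and 10.61 and 10.57 in Th1, with nearly the same differences from both (-1.58 and -1.56). Serpine2, a serine protease inhibitor, had 7.51 and 7.45 in Th17, 9.70 and 9.72 in Th9, and 10.60 and 10.64 in Th1. Ifitm3, an interferon-induced membrane protein, had 7.77 and 7.75 in Th17, 9.26 and 9.45 in Th9, and 10.68 and 10.49 in Th1. It was the 1 gene apart and lower among 21 measured interferon response genes (4.76%, near the 4.23% of all genes tested), with 0 higher. Near-identical family members make it uncertain which one the Ifitm3 probe read. Ckmt1, a mitochondrial creatine kinase (-2.76 and -1.95), Cox6b2, an isoform of a cytochrome oxidase subunit (-2.87 and -1.89), and S100a1, a calcium-binding protein (-3.19 and -1.58), were lower than in both and lowest against Th9. Ebi3, a subunit of interleukins 27 and 35, had 6.41 and 6.30 in Th17, 8.77 and 8.88 in Th9, and 7.77 and 7.93 in Th1.

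Regulatory T cell genes were mixed, with 1 of 12 measured members higher (Nt5e), 4 lower and a median of -0.34. The shares were 8.33% higher and 33.3% lower, against 4.7% and 4.23% of all genes tested. With median scaling 1 member was higher and 1 lower, against 772 higher and 157 lower of the 12093 genes tested. Besides Ebi3, Tnfrsf4 and Tnfrsf18, Il2ra, the interleukin 2 receptor alpha chain, was lower (-0.84 and -0.41). The Il2ra call ended without Th17 replicate 1, Th17 replicate 2 or Th1 replicate 1, with median scaling and without background correction. Foxp3, the lineage factor of regulatory T cells, had 8.63 and 8.63 in Th17, 8.75 and 8.56 in Th9, and 8.30 and 8.44 in Th1, and did not pass (-0.03 and 0.26). Its Th17 and Th9 arrays overlapped. Against Th1, Foxp3 passed with median scaling (0.61, adjusted p = 0.0022), when its probes were averaged (0.33, adjusted p = 0.0238) and on 1 of its 2 other probes (0.63, adjusted p = 0.000916). Cd200, an inhibitory ligand on the follicular helper and inhibitory lists, was lower by -1.09 and -0.65, a call that ended with median scaling and without background correction, and whose 2 other probes did not pass. Of 10 follicular helper genes 2 were higher (Bcl6 and Il21, 20%) and 1 lower (10%). Of 11 inhibitory receptors 1 was higher (Vsir) and 1 lower (9.09% each).

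Most MHC class II genes and some B and plasma cell markers were lower in Th17 than in both other kinds. Of 10 measured MHC class II genes, 7 were apart and lower (70%) and 0 higher, with a median of -0.88. Of 11 measured B and plasma cell markers 5 were apart and lower (45.5%) and 0 higher. The share lower among all genes tested was 4.23%. With median scaling 5 of the 10 MHC class II genes were lower, and 5 of the 11 B and plasma cell markers were lower and 1 higher. In that setting 157 of the 12093 genes tested were apart and lower and 772 apart and higher. Cd74 counts in both lists. Igkc, the immunoglobulin kappa constant region, had 6.82 and 6.92 in Th17, 10.32 and 10.60 in Th9, and 10.27 and 10.34 in Th1. Cd74, the MHC class II invariant chain, had 7.51 and 7.16 in Th17, 10.13 and 10.14 in Th9, and 9.13 and 9.13 in Th1. H2-Eb1, an MHC class II beta chain, had 6.47 and 6.51 in Th17, 8.35 and 8.50 in Th9, and 8.18 and 8.40 in Th1. In each gene the 2 Th17 arrays lay together far below the 4 others, by -3.59 and -3.44 for Igkc, -2.80 and -1.79 for Cd74, and -1.94 and -1.80 for H2-Eb1. Iglv1, a light chain segment (-2.80 and -2.36), Mzb1, a chaperone of plasma cells (-1.84 and -1.21), H2-Aa (-1.67 and -1.5) and H2-Ab1 (-0.94 and -0.81) were lower as well, and of these the H2-Ab1 call ended without background correction. Immunoglobulin and H2 genes have near-identical relatives, so the member read by a probe is uncertain.

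The summed intensity of the 11 B and plasma cell markers was 1901 to 1912 in Th17, 4575 to 4842 in Th9 and 3874 to 4133 in Th1. Ighm, the immunoglobulin mu heavy chain, did not follow the light chains, with 10.01 and 10.04 in Th17, 9.48 and 9.43 in Th9, and 9.82 and 10.12 in Th1. The B cell genes Pax5 and Blnk were below the threshold on 6 of 6 arrays, and Ms4a1 (CD20) was above it on 1, a Th1 array. Cd79b, a chain of the B cell receptor complex, was apart and lower (-1.56 and -1.11), and is named here after its values were seen. Among the 11 markers, both Th17 arrays lay below all others in 8 and above all others in 0. Over all genes tested, 15.5% lay below without overlap and 15.6% above. The sort was on CD45.1 and CD4, and the part of B lineage cells in the results on MHC class II was not tested. Cd8b1, a CD8 chain, was lower by -0.96 and -1.10 on its brightest probe, whereas another probe gave 0.07 and 0.36 and Cd8a was below the threshold on 6 of 6 arrays. Without Th1 replicate 2 another probe was the brightest, and Cd8b1 gave 0.07 and 0.35, neither past the threshold. Of 6 measured NK cell markers 1 was lower (Nkg7, 16.7% of the list against 4.23% of all genes tested) and 0 higher. Of 9 erythroid and platelet, 5 granulocyte, and 7 monocyte, macrophage and dendritic cell markers, 0 were apart in either direction.

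**Figure D4:**
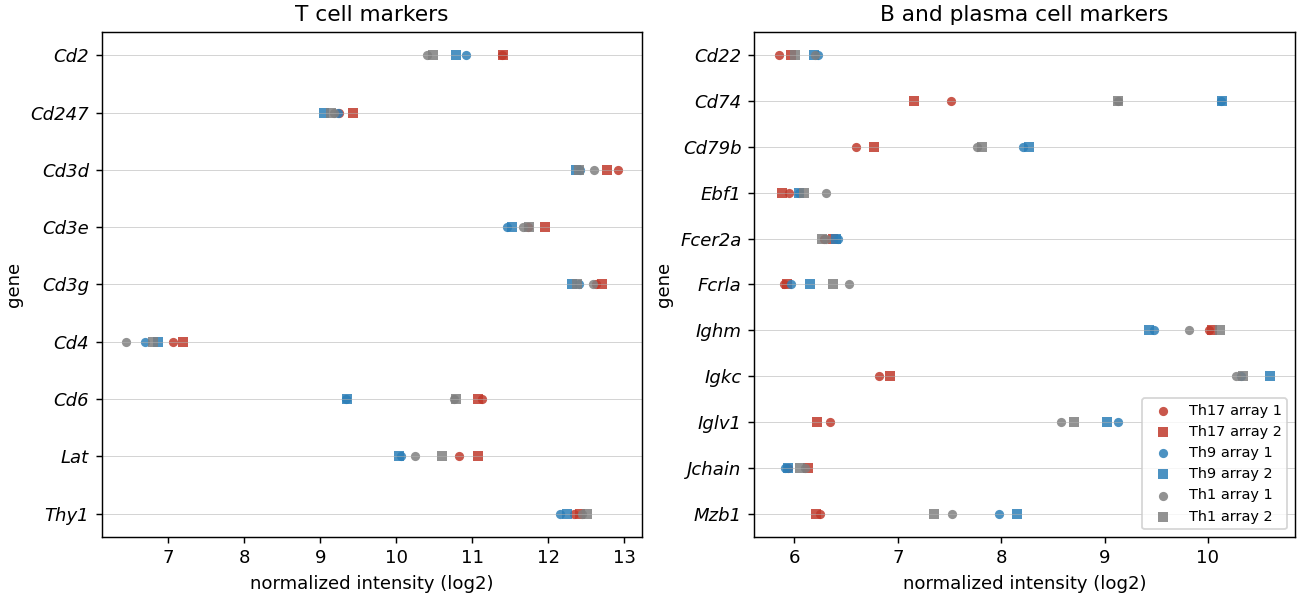
Normalized log2 intensity of single arrays (red Th17, blue Th9, grey Th1, with circles for array 1 and squares for array 2) for the measured T cell markers (left) and B and plasma cell markers (right). Th17 lies mostly on top among the T cell markers, by the widest margin over Th9 in Cd6 (1.76), whereas Igkc, Iglv1, Cd74, Mzb1 and Cd79b show the 2 Th17 arrays below the rest and Ighm does not.

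Cell cycle genes that were apart were all lower in Th17. Of 31 measured members 0 were higher and 5 lower, 16.1% of the list against 4.23% of all genes tested. With median scaling 1 member was lower, against 157 of the 12093 genes tested. The list's median of -0.08 became 0.13 with median scaling. Cdkn1a, which encodes the cell cycle inhibitor p21, had 9.12 and 9.06 in Th17, 11.41 and 11.29 in Th9, and 10.37 and 10.58 in Th1, and its 2 other probes passed in the same direction. It therefore was lowest in Th17 on the same list as the proliferation genes Mcm5, a replication helicase subunit (-0.40 and -0.50), Tk1, thymidine kinase (-0.57 and -0.37), and E2f1, a G1/S transcription factor (-0.40 and -0.43). Those calls ended with median scaling and without Th17 replicate 2. They also ended without Th17 replicate 1 or Th1 replicate 2 for Tk1, without either Th9 array for Mcm5, and without Th9 replicate 2, Th1 replicate 1 or Th1 replicate 2 for E2f1. Of 13 BCL2 family genes 2 were higher (15.4%, against 4.7% of all genes tested) and 4 lower (30.8%, against 4.23%), with a median of -0.15 (0.03 with median scaling). Among those lower were Bcl2a1b (-1.55 and -0.61) and Bcl2a1d (-1.57 and -0.80), near-identical survival genes that the array may not separate. Pmaip1 (-0.57 and -0.43) and Bid (-0.73 and -0.77), which promote cell death, were lower too, Pmaip1 not without Th17 replicate 1, Th17 replicate 2 or Th1 replicate 1. Another Bid probe gave 0.17 and 0.18, and averaging its probes ended the Bid call (-0.28 and -0.29). Without background correction the calls of Mcm5, Tk1, E2f1, Bcl2a1b, Bcl2a1d and Bid ended, and with median scaling also those of Bcl2a1b and Pmaip1.

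**Figure D5:**
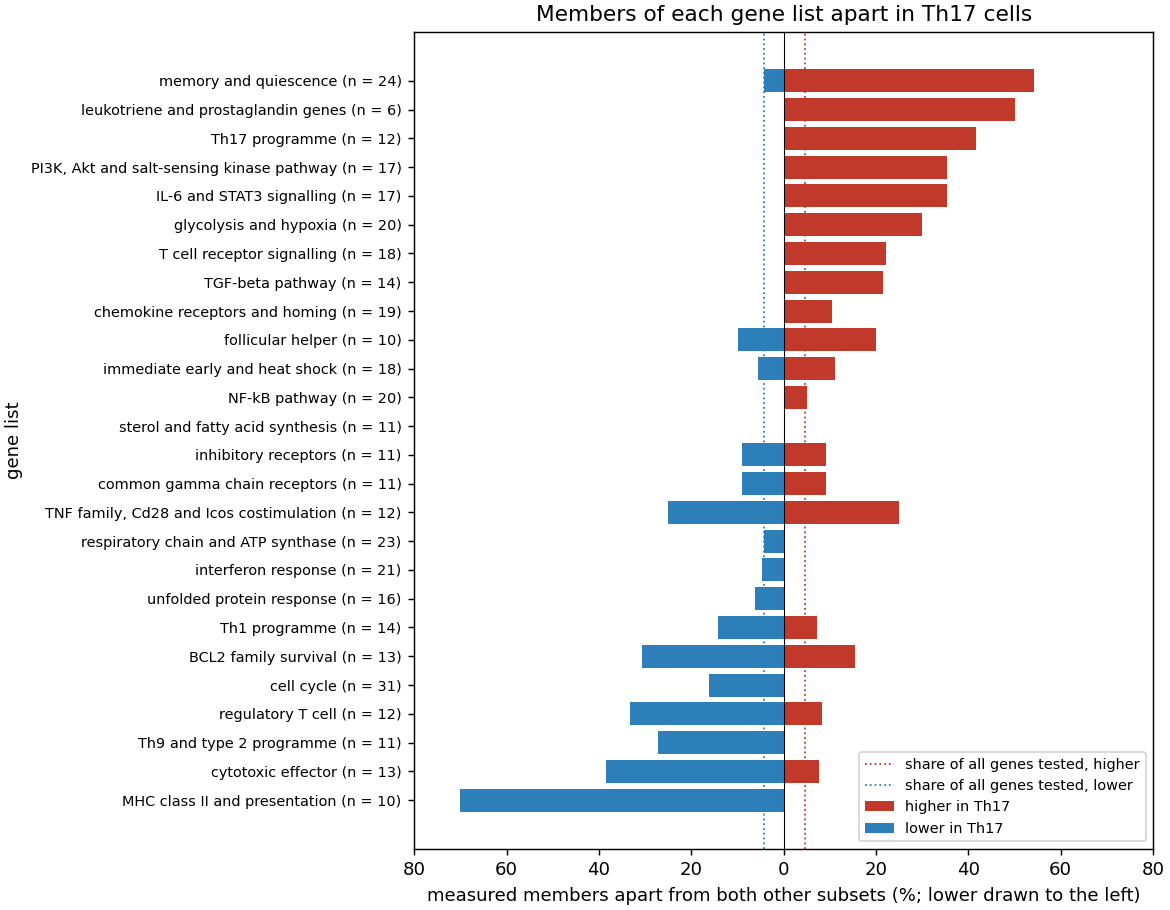
Share of the measured members of each gene list (number measured in brackets) that were apart and higher in Th17 (red, to the right) or apart and lower (blue, drawn to the left), in percent. Dotted lines mark the shares of all 12093 genes tested, 4.7% higher and 4.23% lower, and the bars run from memory and quiescence genes (13 of 24 higher, 1 lower) to MHC class II genes (7 of 10 lower). The lists were chosen with earlier results of these data known, so the shares are description only.

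Several lists had shares near those of all genes, 4.7% higher and 4.23% lower. Of 20 NF-kB pathway genes 1 was higher (Bcl3) and 0 lower, and of 11 sterol and fatty acid synthesis genes 0 were apart in either direction. Of 16 unfolded protein response genes 1 was lower, Atf4 (-0.55 and -0.35), a call that ended without Th17 replicate 1, Th17 replicate 2, Th1 replicate 1 or Th1 replicate 2 and with median scaling. The heat shock gene Hsp90aa1 (-0.44 and -0.45) lost its call without Th17 replicate 1 or Th1 replicate 2 and with median scaling. Of 11 common gamma chain receptor genes 1 was higher (Il7r) and 1 lower (Il2ra). Without background correction the calls of Atf4 and Hsp90aa1 ended. In that setting 2 members were apart and higher in each of the Th17, IL-6 and STAT3, and memory and quiescence lists, 1 in the PI3K and Akt and the TGF-beta lists, 0 in the T cell receptor list and 5 in the glycolysis list, while 3 cytotoxic and 4 MHC class II genes were lower. Of all 12093 genes tested, 77 were apart and higher and 123 apart and lower in that setting.

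A further 56 genes (0.463%) were called in both comparisons in opposite directions, so that Th17 lay between the other subsets, 30 (0.248%) higher than in Th9 and lower than in Th1, and 26 (0.215%) the other way round. Il4, the signature type 2 cytokine, had 7.54 and 7.37 in Th17, 9.70 and 9.68 in Th9, and 5.89 and 5.91 in Th1, where it was not above background. It was lower than in Th9 by -2.23 and at least 2.61-fold higher than in Th1. Gata3, the type 2 transcription factor, had 8.57 and 8.72 in Th17, 10.24 and 10.21 in Th9, and 7.71 and 7.58 in Th1, and the 3 kinds did not overlap. Ms4a4b, a T cell membrane protein with near-identical relatives, ran the other way, higher than in Th9 (1.03) and lower than in Th1 (-1.24). Il18r1, a chain of the interleukin 18 receptor, had 9.97 and 9.82 in Th17, 7.02 and 6.65 in Th9, and 9.87 and 10.05 in Th1. It was higher than in Th9 by 3.06 ± 0.13 and did not pass against Th1 (-0.06, adjusted p = 0.819), with Th17 and Th1 arrays overlapping.

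At the edge of the overlap rule, both sides looked alike. Just inside it, Mosmo had 7.18 and 7.02 in Th17, 7.23 and 7.18 in Th9, and 7.22 and 7.23 in Th1, and Zfp341 was higher by 0.12 and 0.11. Just outside it, Cldn17 differed by -0.09 and -0.05 and Copb2 by -0.04 and -0.14. None of these 4 passed in either comparison. At the dim end, 22 genes apart were above background on 0 Th17 arrays, and 13 genes apart and higher were above it on 0 Th9 and 0 Th1 arrays. The 22 passed the filter through the other arrays alone, and the 13 through the Th17 arrays alone. Of the genes apart, 511 higher and 471 lower were above background on all 6 arrays. Other probes were tested for 38 of the named genes apart. In 12 of these genes every other probe was apart in the same direction, namely Alox5ap, Batf3, Cdkn1a, Ckmt1, Dgka, H2-Ab1, Iglv1, Il6ra, Nt5e, Rora, Stat3 and Tnfrsf18. In 26 some other probe was not, and in 22 of them none was, namely Atf4, Bcl2a1d, Bid, Cd200, Cd27, Cd8b1, Cycs, Egln3, Ets1, Hsp90aa1, Jak1, Lat, Pdk1, Pmaip1, Ramp1, Ski, Stat4, Tgfbr2, Tk1, Tmem176a, Tnfrsf25 and Tnfrsf9. The remaining 4 genes, with probes of both kinds, were Cd6, Cd74, Il7r and Sesn1.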

How the data were processed

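RNA of 6 samples was read on single-colour Illumina bead arrays. The intensity values of the deposited value table are linear, centred near 0 and below 0 for some probes, so a background had been subtracted. The authors' method for this was not given in the sources used here. In a second deposited table, 12 value columns match no sample label and were not used. Groups came from the labels. Intensities were corrected with normexp (offset 50), quantile normalized and put on the log2 scale with limma 3.58.1 in R 4.3.3. A probe was above background on an array when its intensity was over 1.645 times the root mean square of that array's negative values (thresholds 5.84 to 6.95, passed by 41 to 45.2% of probes). Mean intensity per array was 117.1 to 171.1. Probes above it on at least 2 arrays were kept (22460 of 45281), 18614 with a gene name. Genes were named from the platform annotation, 28620 probes through the gene identifier, 2637 through the accession, 2128 through the symbol, 2343 through a synonym and 56 as given, while 9497 had no gene listed. The brightest kept probe stood for a gene.

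The 12093 genes were fitted in 1 linear model over the 6 arrays, with lmFit and eBayes (residual df 3, prior df 16, median SD of residuals 0.104), and p-values were adjusted over all genes by Benjamini-Hochberg with a threshold of 0.05. With that prior, the spread used for each gene was drawn more from all genes together than from its own arrays. A difference is Th17 minus the other kind in log2 units of offset intensity, which understates changes of dim genes, and its ± is a standard error. Where a kind was above background on 0 arrays, "at least" folds are given. Levels of different probes are not compared. Lists share some members, such as Stat3, Cd74, Ccl5 and Fasl, and list counts carry no set test.

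The members and gene lists were chosen with earlier results of these data known. Named were the 15 genes most apart in each direction by the smaller difference (provisional symbols passed over), up to 4 apart members of each list, 24 key genes, 2 genes on each side of the overlap rule and the 3 with the largest opposite calls, 108 in all. Groups share the label repeat, but deviations of same-numbered arrays correlated at -0.023, 0.014 and -0.021, so arrays were not paired. Alternatives changed background correction, offset, scaling, filter, probe choice, variance model and fold threshold, added the repeat as a block, and left out each array in turn.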

Additional observations from a re-analysis of the deposited data

How the results depend on the processing

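Losses of a call by named genes were counted over all settings other than the threshold of 1 log2 unit. Of the 91 named genes apart, 43 kept that call in every such setting that tested them. It was lost by 46 without background correction, 17 with an offset of 16, 13 with median scaling, 21 with some array left out and 0 with the replicate block. With an offset of 16 those were Atf4, Cd27, Cd3d, Cd6, Cycs, E2f1, Hsp90aa1, Il2ra, Lat, Malt1, Mcm5, Prkcq, Ski, Stat3, Stat4, Tk1 and Tmem176a, and with the mean of all probes 12 did, Atf4, Bid, Cd200, Cd27, Cd6, Cycs, Lat, Pmaip1, Prkcq, Ski, Stat4 and Tk1. Without background correction and offset, 200 genes were apart (77 higher, 123 lower), 162 of them shared with the 1080, and 674 differed from Th9, 314 from Th1 and 599 from the mean of both. An offset of 16 gave 654 apart, 1109 against Th1 and 1505 against the mean, where 2297 genes (1106 higher, 1191 lower) had been called. Requiring 1 log2 unit gave 109, 323, 192 and 204. Median scaling gave 2733 against Th1 (2488 higher, 245 lower), 1623 against Th9 (924 higher, 699 lower), 2190 against the mean (1725 higher, 465 lower) and 3505 without overlap (2785 higher, 720 lower). The causes of these shifts were not tested. Leaving out 1 array gave 609 to 948 apart, 1433 to 2550 against Th9, 1002 to 1699 against Th1, 1237 to 2383 against the mean, and 4370 to 5912 without overlap. Without Th17 replicate 1 there were 664 apart, 1487 against Th9, 1096 against Th1, 1358 against the mean and 5912 without overlap, and without Th17 replicate 2 there were 609, 1433, 1002 and 1237 in the first 4 counts. Without Th9 replicate 1 the count against Th9 was 1486. Where a kind had 1 array left, it was assumed to vary like the others. With the replicate block, 1067 genes were apart, 2243 differed from Th9, 1764 from Th1 and 2242 from the mean. Counted only over genes above background on both Th17 or all 4 other arrays, a choice made after seeing the data, 1124 were apart. Cd8b1 ran from -1.07 to 0.07 against Th9 and from -1.21 to 0.35 against Th1 over the single arrays left out, reversing without Th1 replicate 2, where another probe became the brightest. Single gene values that missed the threshold in both settings may differ in sign. Signal near background limits the cytokine genes, and 2 arrays a kind limit small differences.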
